A study of Homo sapiens with 31 samples.

Results

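The RNA recovered with SBP-eIF4A1 was compared with the RNA of the lysate it was drawn from, in HEK293 T-REx cells that had been treated with a control siRNA for 72 h. The comparison took all libraries with these labels, 2 streptavidin pulldowns and 2 inputs, which are 4 of the 31 libraries of the series. HEK293 T-REx is a human embryonic kidney cell line built for induction of a transgene. All 4 libraries came from cells with the genotype SBP-eIF4A1, in which the factor eIF4A1 carries a streptavidin-binding peptide, and no PP242 is named for them. The labels do not give the promoter of the tagged factor, whether the cells are 1 clone, or whether replicates came from separate cultures, so p-values measure only the spread between these libraries. A pulldown from cells without the tagged factor was not analysed here, and RNA held by the beads themselves cannot be told apart from RNA held by SBP-eIF4A1.

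The series also holds pulldowns and inputs that serve as points of reference. They came from SBP-eIF4A1 cells with LARP1 siRNA for 72 h (2 inputs, 1 pulldown), from SBP-eIF4A1 cells with no siRNA (2 and 2), and from SBP-eIF4A2 cells with no siRNA (2 and 2). Naive cells, which carry no tagged factor in the labels, gave 2 RNA-seq libraries and ribosome footprints. The footprint libraries were 2 with DMSO and 1 each with 1 and 10 µM PP242, an inhibitor of the mTOR kinase, for 30 min.

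eIF4A1 is the main RNA helicase of the cap-binding complex eIF4F, which prepares an mRNA for loading of the small ribosomal subunit. eIF4A2 is its close paralog. LARP1 binds the cap and the adjoining pyrimidine tract of TOP mRNAs, the class that encodes ribosomal proteins and translation factors, and represses their translation when mTORC1 is inactive. The deposited files name transcripts by Ensembl transcript ID and do not pair them with genes, so transcripts are described by their length, level, translation and PP242 response, and TOP mRNAs are not identified by name.

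Each file gave a read count per transcript and, for 100283 of 227264 transcripts, a length. The 126981 transcripts without a length had no count in any library. The unit of the length is not given, nor whether it covers the whole transcript, and it is used only to order transcripts. Because transcripts of a locus share reads, depth was summed over 1 transcript per locus. It was 16781158 and 12043587 counts in the inputs and 14730777 and 13481836 in the pulldowns. The log2 CPM (counts scaled to library size by TMM) of the 2 inputs correlated at r = 0.98 across 65793 transcripts, as did that of the 2 pulldowns, and an input with a pulldown at 0.88 to 0.90. The scatter between replicates, as chi-square per degree of freedom (1 is counting error alone), was 7.13 for these inputs and 13.0 for these pulldowns, against 1.45 and 1.84 for those without siRNA. Whether EIF4A1 and LARP1 reads match the labels was not tested, since no transcript could be assigned to them.

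Most transcripts tested differed in share between the pulldown and the input. Of 65793 transcripts tested, 37604 passed an adjusted p of 0.05 (edgeR quasi-likelihood test, Benjamini-Hochberg), which is 57.2%. Enrichment in the pulldown was called for 19164 (29.1%) and depletion for 18440 (28.0%). The median log2 ratio of pulldown to input was 1.27 among the enriched and -1.16 among the depleted transcripts. The enriched transcripts had a median length of 362 and the depleted ones 192. Both pulldowns lay above both inputs for 26810 transcripts (40.7%) and below both for 25076 (38.1%). Values are shares of a library, so more of one RNA in a pulldown and less of all others cannot be told apart. When libraries were scaled to their totals in place of TMM, the median of all transcripts rose by 0.48, and the calls became 29157 enriched and 10765 depleted.

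The 2 largest enrichments and the 2 largest depletions are named, from transcripts averaging at least 5 on the log2 CPM scale, where the transcript with the largest total count stands for its locus. The rule requires a call and both pulldowns on 1 side of both inputs, so neither that separation nor the passing of the cutoff is a result. Over all transcripts at this level, before the choice of 1 per locus, the log2 ratios reached 3.68 and -6.01. ENST00000360151.9, of length 341, stood at 26.9 and 24.6 CPM in the inputs and at 280.5 and 364 CPM in the pulldowns. That is a 12.5-fold enrichment (log2 3.65, SE 0.21, edgeR adjusted p = 4.66e-17). This transcript was present as RNA but nearly without footprints in naive cells, with 985 and 830 RNA-seq counts and 2 and 1 footprint counts under DMSO. ENST00000397910.8, of length 14498, rose from 6.30 and 6.77 CPM to 54.8 and 92.6 CPM (log2 3.50, SE 0.23, edgeR adjusted p = 1.33e-15). In cells with no siRNA the same long transcript went the other way, from 5.04 and 5.70 CPM in the inputs to 0.772 and 1.24 CPM in the pulldowns, on 26 and 45 counts.

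The named depleted transcripts nearly disappeared from the pulldown. ENST00000403683.1, of length 127, stood at 780 and 761 CPM in the inputs and at 24.8 and 10.7 CPM in the pulldowns. That is a 43.3-fold depletion (log2 -5.44, SE 0.26, edgeR adjusted p = 1.17e-19). ENST00000609879.2, also of length 127, went from 140.4 and 139 CPM to 4.27 and 1.97 CPM (log2 -5.47, SE 0.26, edgeR adjusted p = 6.48e-20). Both were also low in the pulldowns of the other tagged experiments, at log2 -4.01 and -4.07 with no siRNA. ENST00000609879.2 has counts equal to those of another ID, and ENST00000403683.1 and ENST00000360151.9 each have another row within 5% of their counts, so how reads were split among near-identical copies is uncertain.

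**Figure D1:**
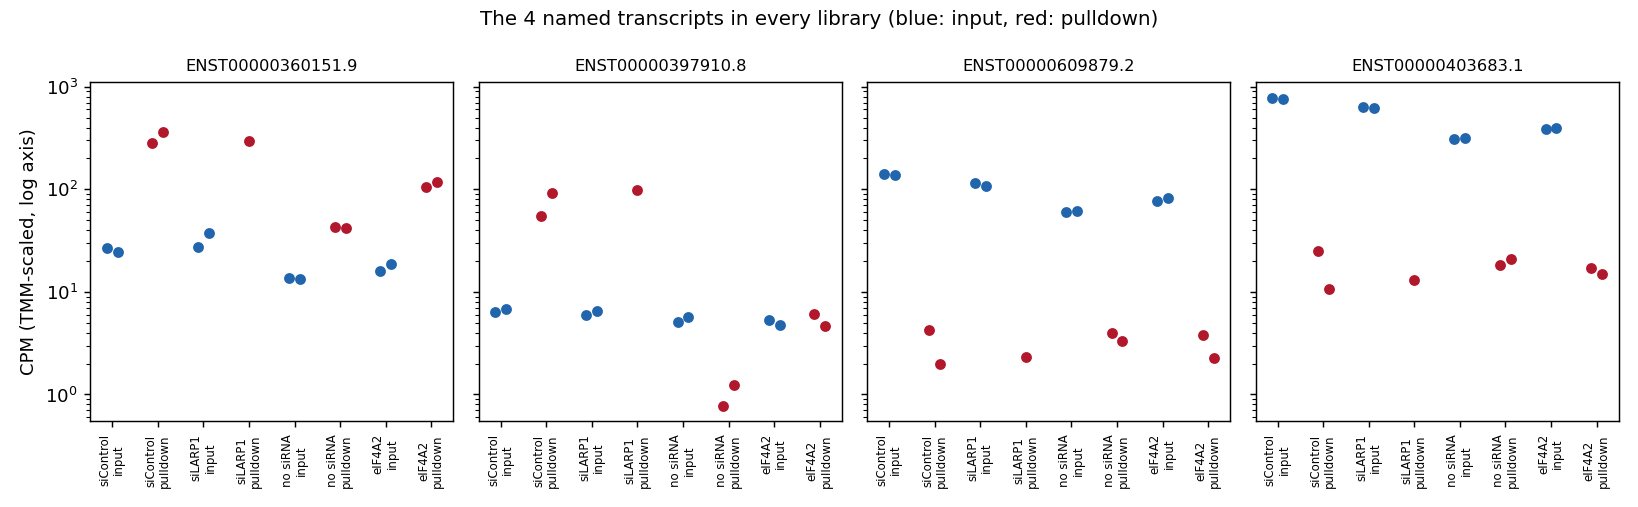
TMM-scaled CPM (log axis) of the 4 named transcripts in each pulldown and input library, 1 point per library, blue for input and red for pulldown. With siControl, both pulldowns of ENST00000360151.9 lie above 280 CPM against inputs under 27, and ENST00000397910.8 is the transcript that rises with siControl and falls with no siRNA.

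Among the more abundant transcripts, a group of short ones lay below a gap in the ratios. Chosen on these values, 59 transcripts (11 after reduction to 1 per locus) averaging at least 5 in log2 CPM had a log2 ratio below -4, from -6.01 to -4.24, and the next value at that level was -3.46. Without the minimum level, 82 depleted transcripts lay below -4. The 59 chosen transcripts had lengths from 69 to 212 with only 15 different values, 18 transcripts at 117, 13 at 121, 9 at 94 and 7 at 127. They held 1.29% and 1.25% of the counts of the siControl inputs and 0.064% and 0.036% of the pulldowns. In the other experiments the same transcripts were low too, with a median of -5.68 with LARP1 siRNA, -4.09 with no siRNA and -4.64 with SBP-eIF4A2. They were translated in naive cells, where they held 1.86% and 1.97% of DMSO footprints and 0.980% and 1.02% of RNA-seq counts. The opposite group, 35 transcripts (11 by locus) above 3, had lengths from 105 to 14498 and a median of 1.55 with no siRNA and 2.67 with SBP-eIF4A2.

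Long transcripts held more of the siControl pulldown than of its input, and short ones less. Transcripts of length over 1000 held 12.4% and 12.3% of input counts and 24.1% and 26.5% of pulldown counts, a 2.05-fold larger share (25.3% ± 1.65 against 12.3% ± 0.0701, SD, n = 2 each). Transcripts of length up to 200 held 27.0% and 27.7% of input counts and 17.1% and 16.4% of pulldown counts (16.8% ± 0.481 against 27.3% ± 0.530). The groups did not overlap in either share, and 2 libraries against 2 cannot give an exact two-sided permutation p below 0.333, which both shares reached. The mean length weighted by counts rose from 548 and 543 to 798 and 849. The pulldown was also less dominated by a few transcripts, since the 10 most abundant held 6.99% and 7.10% of input counts and 3.08% and 2.80% of pulldown counts.

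**Figure D2:**
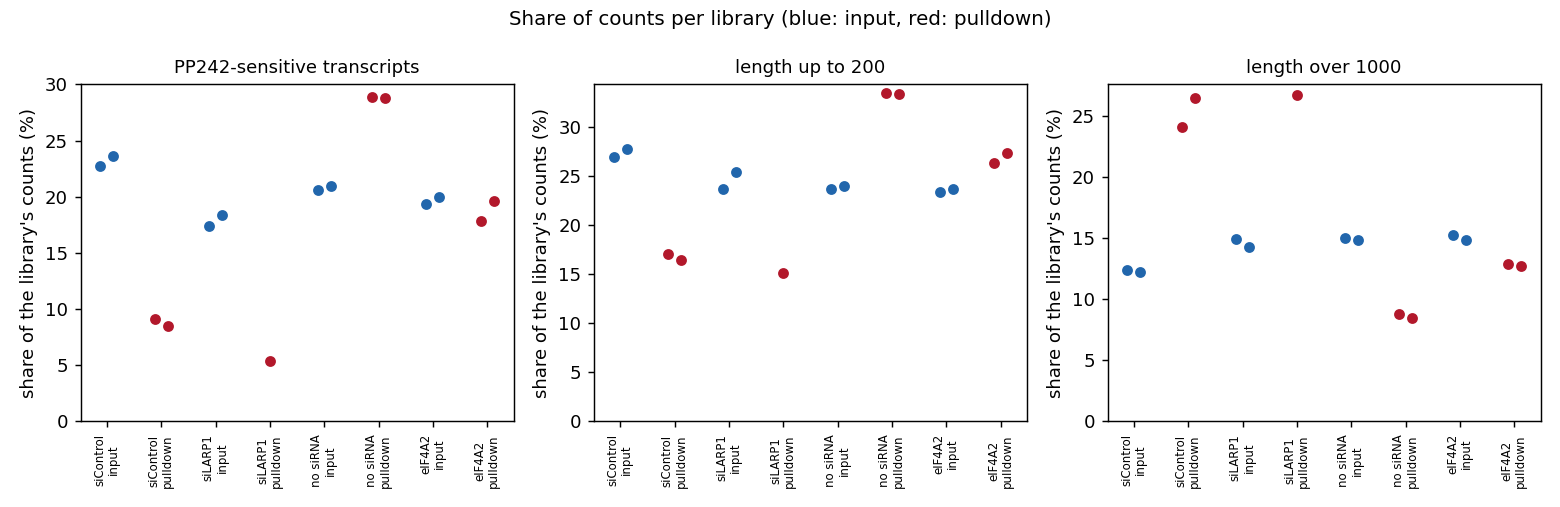
Share of each library's counts (%, 1 transcript per locus) held by PP242-sensitive transcripts, by transcripts of length up to 200 and by those over 1000, 1 point per library, blue for input and red for pulldown. With siControl and with LARP1 siRNA the pulldowns lie below the inputs in the first 2 panels and above them in the last, and with SBP-eIF4A1 and no siRNA the order is turned in all 3.

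Across length classes the median log2 ratio was lowest in the shorter classes and highest in the longest. The median log2 ratio was -0.11 for the 13151 transcripts of length up to 100, -0.15 for those over 100 and up to 200 (n = 17131) and -0.07 for those up to 400 (n = 14339). It was 0.23 for those over 400 and up to 800 (n = 13342) and 0.66 for the 7830 transcripts over 800. In that longest class 4175 transcripts were enriched and 835 depleted, against 2462 and 3746 in the shortest. The 2 pulldowns, each against the mean input, gave 0.61 and 0.71 for the longest class and -0.10 and -0.12 for the shortest. Scaled to library totals, all length classes had medians above 0, with 0.36 for the shortest and 1.14 for the longest, so the sign is not a result. With 1 transcript per locus the classes up to 400 stood at 0.03, -0.02 and -0.14 from the shortest up. The classes over 400 and over 800 then stood at 0.17 and 0.63. The order among the classes up to 400 is therefore not a result either, and only the rise above 400 held.

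**Figure D3:**
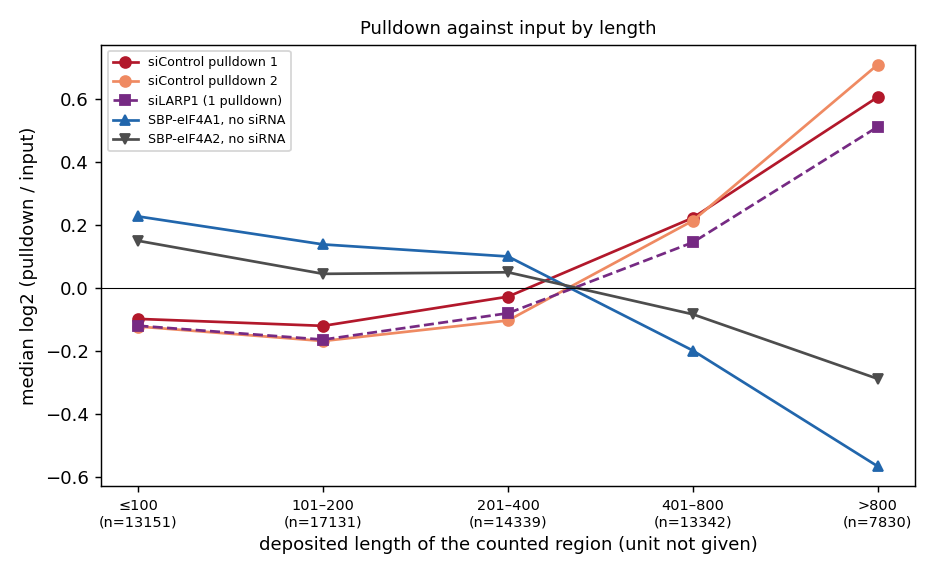
Median log2 ratio of pulldown to input (vertical axis) in 5 classes of deposited length (horizontal axis, unit not given), for each siControl pulldown, the LARP1 siRNA pulldown, and the pulldowns with no siRNA. The siControl lines climb from -0.10 and -0.12 to 0.61 and 0.71, and the SBP-eIF4A1 line with no siRNA falls from 0.23 to -0.57.

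The level of a transcript in naive RNA-seq, in libraries that share nothing with the pulldown, ordered the ratios the other way. From the lowest to the highest quintile of naive RNA level the median log2 ratio fell from 0.68 through 0.26, 0.03 and -0.17 to -0.46. In the lowest quintile 4066 transcripts were enriched and 793 depleted, and in the highest 2876 and 6693. A transcript can pass the count filter through the group in which it is high, which favours calls of enrichment and high medians at low level by construction. Scaled to library totals, the median of the highest quintile was 0.02.

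Length and level were then crossed. In the highest quintile of RNA level, the 3128 transcripts over 800 had a median of 0.34 and the 702 transcripts up to 100 a median of -1.69, with 15 of the latter enriched and 623 depleted. In the lowest quintile the same classes stood at 1.33 and 0.36. At every level the median rose with length, and in every length class it fell with level. The fall with level and the values of the lowest quintile carry the same limit from the count filter. The short, abundant class that was lowest with siControl had a median of 0.45 with no siRNA and -0.18 with SBP-eIF4A2.

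**Figure D4:**
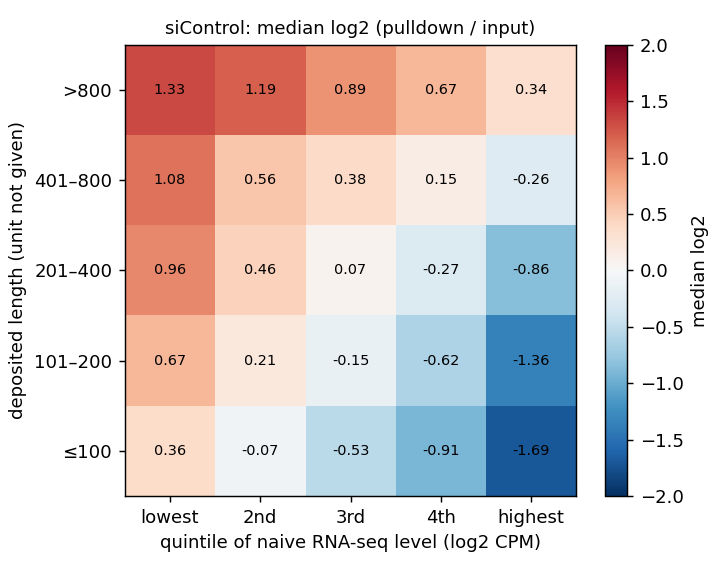
Median log2 ratio of siControl pulldown to input in each of 5 length classes (vertical axis, unit not given) and 5 quintiles of naive RNA-seq level (horizontal axis), coloured from blue (below 0) to red (above 0). The corner of short, abundant transcripts stands at -1.69 and that of long, scarce ones at 1.33. Scarce transcripts can pass the count filter by being high in a pulldown, which favours high medians at low level.

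The translation of a transcript in naive cells was set beside its recovery with SBP-eIF4A1. Translation efficiency was taken as DMSO footprints over RNA (log2 CPM difference, at least 50 counts in each), for 34696 transcripts in 5 quintiles. The median log2 ratio of pulldown to input fell from 0.28 in the quintile with the lowest efficiency through -0.16, -0.44 and -0.64 to -0.72 in the quintile with the highest. The least translated quintile held 2937 enriched and 1616 depleted transcripts, and the most translated 1037 and 3887. Scaled to library totals, the medians ran from 0.75 to -0.24 in the same order. These quintiles differ in length as well, with medians of 487 and 202. Within the class of length over 100 and up to 200 the fall remained, from -0.35 to -0.95. Over 800 it did not, with 0.63 in the lowest quintile, 0.30, 0.21 and 0.22 in between and 0.43 in the highest. Across these transcripts the rank correlation of efficiency with the ratio was -0.31, a description over transcripts that share loci.

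PP242-sensitive transcripts, a footprint class in which TOP mRNAs are known to be prominent, were scarce in the siControl pulldown. They are the 600 transcripts (161 by locus) whose footprints in naive cells were at least 2-fold lower than with DMSO at both doses, with at least 50 DMSO counts. They held 22.8% and 23.7% of input counts and 9.10% and 8.49% of pulldown counts, a ratio of shares of 0.379 (8.79% ± 0.432 against 23.2% ± 0.629, SD, n = 2 each). The pulldowns lay below the inputs, with the exact two-sided permutation p at 0.333, the smallest this design allows. Among the 600, 503 were depleted and 32 enriched, against a background of 28.0% depleted, and their median log2 ratio was -1.83 against -0.32 for the 34394 other transcripts with footprints. Of those others, 14874 were depleted and 7720 enriched. The 2 pulldowns gave medians of -1.77 and -1.90. Scaled to library totals, the sensitive transcripts stood at -1.35, with 468 depleted and 61 enriched, and the others turned to 0.16.

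The sensitive transcripts are short and abundant, with a median length of 136, and were therefore compared within classes of length and, separately, of RNA level. The classes do not match them to the others in both. In the most abundant quintile their median level was 8.33 log2 CPM and median length 139, against 4.77 and 444 for the others. Between 100 and 200 in length, the median levels were 8.50 and 2.92. A comparison with length and level crossed was not made. Up to a length of 100, 159 of 176 sensitive transcripts were depleted with a median of -1.87, against 63.9% depleted and -0.91 for the others of that length. Between 100 and 200, 242 of 275 were depleted, with a median of -2.02, against 55.9% and -0.68. Between 200 and 400, 86 of 109 were depleted, with -1.52, against 49.4% and -0.47. Between 400 and 800 the classes were close, at -0.18 for 37 sensitive transcripts and -0.07 for the others, and over 800 there were 3 sensitive transcripts. Among the most abundant quintile, 460 of 514 sensitive transcripts were depleted, with a median of -1.95, against 49.9% and -0.43 for the others. In the quintile below, 28 of 48 were depleted, with -1.12 against -0.26. The other quintiles held few sensitive transcripts, with medians of -0.47 (n = 20), -0.41 (n = 10) and 0.17 in the lowest (n = 8), against -0.28, -0.18 and 0.02 for the others.

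Graded by the size of the footprint change, recovery was lowest in the middle of the sensitive range. The median log2 ratio was 0.00 for the 595 transcripts whose footprints rose by more than 0.5 (log2, mean of both doses), -0.22 from 0 to 0.5 and -0.43 from -0.5 to 0. It was -0.71 from -1 to -0.5, -1.34 from -1.5 to -1, and -2.24 from -2 to -1.5, where 190 of 193 transcripts were depleted. The 157 transcripts below -2 stood at -1.72, with 136 depleted and 20 enriched. With 1 transcript per locus these lowest classes lay closer, at -1.96 from -2 to -1.5 (n = 52) and -1.77 below -2 (n = 38). With no siRNA the medians of all these classes, over all transcripts, ran from -0.46 up to 1.03.

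**Figure D5:**
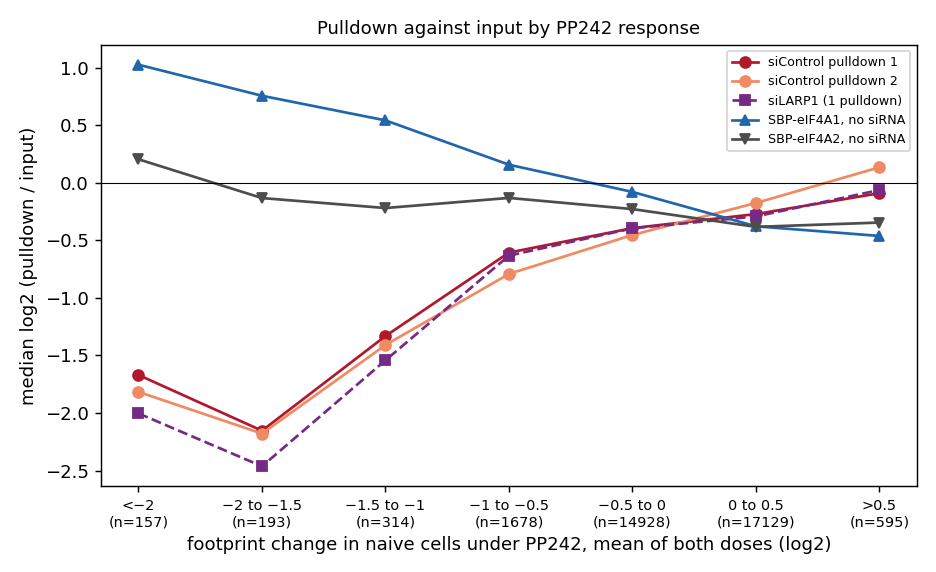
Median log2 ratio of pulldown to input (vertical axis) in 7 classes of footprint change under PP242 in naive cells (horizontal axis, log2, mean of both doses), for each siControl pulldown and the reference experiments. Both siControl lines are lowest from -2 to -1.5 and the SBP-eIF4A1 line with no siRNA is highest below -2, at 1.03.

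The pulldown with LARP1 siRNA gave values near those of siControl. Across transcripts the log2 ratios of both correlated at r = 0.89 (rho = 0.91, n = 65793, no shared library). Of the transcripts enriched with siControl, 98.4% had a ratio above 0 with LARP1 siRNA, against 50.7% of all tested. Of those depleted, 99.0% had a ratio below 0, against 49.3% of all tested. The sensitive transcripts had a median of -2.06 with LARP1 siRNA, where they held 17.4% and 18.4% of input counts and 5.34% of the counts of the single pulldown. Transcripts of length over 1000 went from 14.9% and 14.3% to 26.8%.

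The SBP-eIF4A1 pulldown with no siRNA had the opposite order by length and PP242 response and the same order by RNA level. From the lowest to the highest quintile of RNA level its median ran from 0.27 to -0.29, and from the lowest to the highest translation efficiency from 0.19 to -0.34, also as with siControl in direction. The correlation of log2 ratios was r = 0.28 (rho = 0.27, n = 64280, no shared library), lower than with SBP-eIF4A2, at r = 0.52. An edgeR quasi-likelihood fit of these 8 SBP-eIF4A1 libraries called 66.2% of transcripts for siControl and 59.4% for no siRNA. In that fit the ratio differed for 36861 of 65044 transcripts (56.7%), higher with siControl for 19252 (29.6%) and lower for 17609 (27.1%). Scaled to library totals, these counts became 30489 higher and 9416 lower. Of the transcripts depleted with siControl in that fit, 45.5% were depleted and 22.2% enriched with no siRNA. Of those enriched with siControl, 38.0% were enriched and 20.9% depleted. The difference passed the test for all 4704 transcripts enriched with siControl and depleted with no siRNA, and for all 4563 with the opposite pair of calls. Opposite calls in the same fit nearly fix that outcome, so it is no separate result. For ENST00000397910.8 the difference was 5.95 (edgeR adjusted p = 4.12e-08).

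The sign of the difference followed length and PP242 response. Of the 7718 transcripts over 800 in length, the ratio was higher with siControl for 5918 and lower for 118. Of 600 sensitive transcripts it was lower for 550 and higher for 12, with a median difference of -2.55, from 0.70 with no siRNA to -1.80 with siControl. The other transcripts with footprints had a median difference of -0.08. As shares of counts, the sensitive transcripts went from 20.6% and 21.0% of inputs to 28.9% and 28.8% of pulldowns with no siRNA. With SBP-eIF4A2 they went from 19.3% and 19.9% to 17.9% and 19.6%, where inputs and pulldowns overlapped. In this share the siControl inputs, at 22.8% and 23.7%, lay above the SBP-eIF4A1 inputs with no siRNA. The pulldowns differed more, at 9.10% and 8.49% with siControl. The inputs differed in the share of length over 1000 as well, at 12.4% and 12.3% with siControl against 15.1% and 14.8%. The siRNA treatment and any other difference between these sets of libraries cannot be told apart.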

How the data were processed

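SBP pulldowns, their inputs, naive RNA-seq and naive ribosome footprints were used. Per the labels' protocols, tagged factors were captured on streptavidin beads and eluted with biotin, and a stranded mRNA kit served for pulldown, input and RNA-seq libraries. The authors deposited raw read counts per Ensembl transcript with no scaling, and another column the authors deposited holds a length whose unit is not stated. CASAVA 1.8, STAR 2.7.0a and hg38 are named, per the submitters' processing notes, and the counting tool is not given in the sources used here. Column meanings were read from the values, as the files have no header.

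Of 227264 transcripts, 126981 had neither a length nor a count in any library. Of the 100283 with a length, 94734 had a count. Transcripts with equal counts in all 31 libraries were collapsed to 77343. As 26549 transcripts had counts equal to those of another, transcripts share reads and calls are not independent. For shares and depth, 1 transcript per locus was kept (35499, correlation of at least 0.9 within 10 rows).

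Pulldown and input with siControl were compared with edgeR 4.0.16 (R 4.3.3) in a quasi-likelihood fit of the 7 siRNA libraries, with TMM scaling and the default filter (minimum count 10, minimum total 15). The single LARP1 siRNA pulldown makes that filter pass a transcript on 1 library. The difference from no siRNA was fitted on 8 libraries. Log values used a prior count of 2. The standard error is the log2 ratio over the root of the F statistic. The code was tested on simulated counts with known changes. Alternatives were other scalings, DESeq2 1.42.0, other filters, the 4 libraries alone, a replicate block, 1 transcript per locus and each library left out.

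Named transcripts had a mean log2 CPM of at least 5, a call, both pulldowns on 1 side of both inputs and the same direction with each library left out: the 2 largest in each direction. As no gene names were available, 1 per gene was replaced by a distance of over 100 rows, chosen after seeing the data. Gene lists and cell type markers could not be applied for the same reason. The comparison and all classes were chosen with earlier results of these data known.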

Additional observations from a re-analysis of the deposited data

Results flagged for a closer look

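The ratio of pulldown to input differed between the siControl and the no-siRNA experiment for 36861 transcripts, by an edgeR test of the difference itself over 8 libraries (adjusted p of 0.05). The median difference over the 600 PP242-sensitive transcripts was -2.55, with 550 lower and 12 higher with siControl. The scatter between replicates was larger in the siControl libraries (7.13 and 13.0 chi-square per degree of freedom) than with no siRNA (1.45 and 1.84), and its part in the difference was not tested.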

How the results depend on the processing

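With 1 transcript per locus the siControl comparison gave 13173 calls of 26707 tested and the difference from no siRNA 13110 of 26115. Fewer transcripts were tested, and the share called was also lower than the 57.2% and 56.7% of the report. All other settings kept the total of calls within 1.5 times that of the report. Library totals did not keep the split, with 29157 enriched and 10765 depleted (TMM 19164 and 18440), and for the difference 30489 higher and 9416 lower (TMM 19252 and 17609). With each library left out, calls ran from 29968 to 33606 for the comparison and from 31391 to 39057 for the difference. The 2 input and pulldown pairs share only a replicate number (correlation of their replicate deviations 0.22). With the replicate block the calls were 43673 for the comparison and 40396 for the difference. DESeq2's Wald test gave 33314 and 32465. Of the calls in the report that were tested, 78.7% (without input 2) to 100% (replicate block) were called again in the same direction. Library totals turned the sign of 296. Upper-quartile scaling raised the median of all transcripts by 0.13. The 4 named transcripts kept direction and call in the other settings, and with each library left out the direction was fixed by the rule that chose them. With the 4 siControl libraries alone their edgeR adjusted p-values were much larger, from 1.37e-06 to 2.81e-06. The median of sensitive minus other transcripts ran from -1.60 to -1.44 and that of length over 800 minus up to 100 from 0.59 to 1.01. For the highest minus the lowest quintile it ran from -1.55 (a mean of at least 50 counts, which keeps scarce transcripts that are high in these libraries) to -1.07 by RNA level and from -1.03 to -0.83 by translation efficiency. These class medians under other settings were chosen after seeing the data. Fits with 1 transcript per gene and those of gene lists were not run, for want of gene names. Transcripts at low counts limit the lowest quintile of RNA level most.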
